A study of Bos taurus with 4 samples.

Results

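The zona pellucida is the glycoprotein coat that the growing oocyte secretes around itself. In cattle it is built from the proteins of ZP2, ZP3 and ZP4, which polymerise into filaments through a shared ZP domain. The coat binds sperm of the species, and after fertilisation it is altered so that further sperm do not enter; in the mouse this step includes cleavage of ZP2. In the mouse, zona messages accumulate while the oocyte grows and are lost during meiotic maturation. In oocytes a message is stored, translated or degraded depending in part on how long its poly(A) tail is. The values below describe the signal of the zona messages in long-tailed against short-tailed RNA, relative to other messages. The oocytes had not yet resumed meiosis. All array probes annotated with the symbols ZP2, ZP3 or ZP4 were taken, which gave 6 of 43794 bovine probes: 2 for ZP2, 3 for ZP3 and 1 for ZP4.

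The series holds 4 pools of 200 immature oocytes at the germinal vesicle stage, stripped of their cumulus cells and taken from Holstein cow ovaries collected at slaughter. RNA of each pool was freed of ribosomal RNA and split on oligo(dT) beads. The A- fraction is the RNA that the beads let pass, labelled as carrying tails of at most 50 nucleotides. The A150 fraction is what came off the beads at 75 °C and is labelled as carrying tails of at least 150 nucleotides. RNA released earlier, at 42 °C, is not analysed here. Both fractions of a pool were amplified, labelled and hybridised together on 1 two-colour array. Arrays 1 and 2 carried A150 in Cy5, and arrays 3 and 4 carried it in Cy3. No untreated or unfractionated RNA is among the groups, so each value is a ratio between fractions. A pool mixes oocytes, so fewer oocytes with a message and less of it per oocyte cannot be told apart.

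A probe counted as above background in a channel when its spot mean lay more than 2 SD over the average of the 153 negative-control spots. Probes that met this in either fraction on 3 or more arrays were kept, 19453 in all, and all 6 zona probes were among them. They gave 7795 genes with 1 probe each. Between 9.96% and 60.6% of bovine probes were above background in A150 and between 22.0% and 48.7% in A-, with the lowest share in A150 on array 2. Of 12 oocyte markers, 11 had a kept probe and NOBOX did not. Their mean log2 ratios of A150 over A- had a median of 1.11 and ran from -2.44 for DAZL to 2.17 for H1-8. DAZL was negative on all 4 arrays, KIT (-0.45) and BMP15 (-0.02) had negative means, and the other means were positive. None passed over all genes (limma). Oocyte marker spot means summed to between 92323 and 123704 scanner units in A150 and between 66422 and 74690 in A-. Of 25 cumulus and granulosa markers, 11 had a kept probe: SERPINE2, STAR, COL4A1, PTX3, GJA1, CYP19A1, GREM1, CD44, INHBA, KRT18 and VCAN. The mean log2 ratio of A150 over A- was 2.01 for SERPINE2 and from -0.60 to 0.40 for the other 10, and none passed over all genes (limma). Their spot means summed to between 28881 and 37788 scanner units in A150 and between 21392 and 32061 in A-. The 14 without a kept probe included FSHR, AMH, INHA, HAS2 and FOXL2. The part of carried-over cumulus RNA in the zona values was not tested.

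In these oocytes, 5 of the 6 zona probes had more signal in A150 than in A- on all 4 arrays, and at least 1 probe of each gene was among them. ZP4 had a mean 11.9-fold excess in A150 and the 3 probes of ZP3 had mean excesses of 3.24-fold to 14.2-fold. Those sizes set A150 against A- spots that were above background on 3 of 4 arrays for ZP4 and on 1 to 3 for the ZP3 probes, and without background correction they were 5.84-fold for ZP4 and 2.62-fold to 4.95-fold for ZP3. ZP2 was split: its brighter probe had near equal signal in both fractions on average and its other probe a mean 3.35-fold excess in A150. None of the 6 passed the test across all probes (limma, adjusted p from 0.0804 to 0.945). At an unadjusted p under 0.05, limma placed 5 of 6 toward A150, against 8.03% of all kept probes, and 0 of 6 toward A-, against 5.45%. Of these 5 probes 3 are of ZP3, so they are not 5 separate genes. EMBV3_13335 and EMBV3_15954 met the filter only through A150, with A- above background on 2 and 1 arrays, so their side is no separate support. Among the zona probes that also met it in A-, EMBV3_42580, EMBV3_18227 and EMBV3_22386 were toward A150 at that p and EMBV3_00847 was not. The 8.03% covers kept probes of every brightness, and the zona probes were chosen with earlier results of these data known. By the brightest probe of each gene, ZP3 and ZP4 were toward A150 at that p and ZP2 was not, against 9.72% of all genes. At an adjusted p under 0.05 the shares of all kept probes were 0% and 0.0617%. A positive ratio on all 4 arrays, seen in the same 5 probes, was found in 12% of kept probes. Under 2 other settings some zona probes passed: without normalization within arrays EMBV3_13335, EMBV3_15954 and EMBV3_22386 did (1.54% of kept probes toward A150), and with the test limited to probes measured above background in every channel EMBV3_42580 did (5.71%).

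The spots themselves show the difference in signal before any normalization. All 24 zona spots in A150 channels (6 probes on 4 arrays) were above background, with spot means from 4140 to 36458 scanner units. In A- channels 17 of 24 spots were above background, and spot means ran from 889 to 32923. A spot was taken as saturated when its median pixel stood at the scanner's ceiling of 65535. None of the zona spots was saturated, and their highest median was 45681. Among all bovine probes, between 0 and 16 were saturated per channel. Spot means did not exceed 47221 anywhere, and single saturated pixels within a spot cannot be seen in the files.

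**Figure D1:**
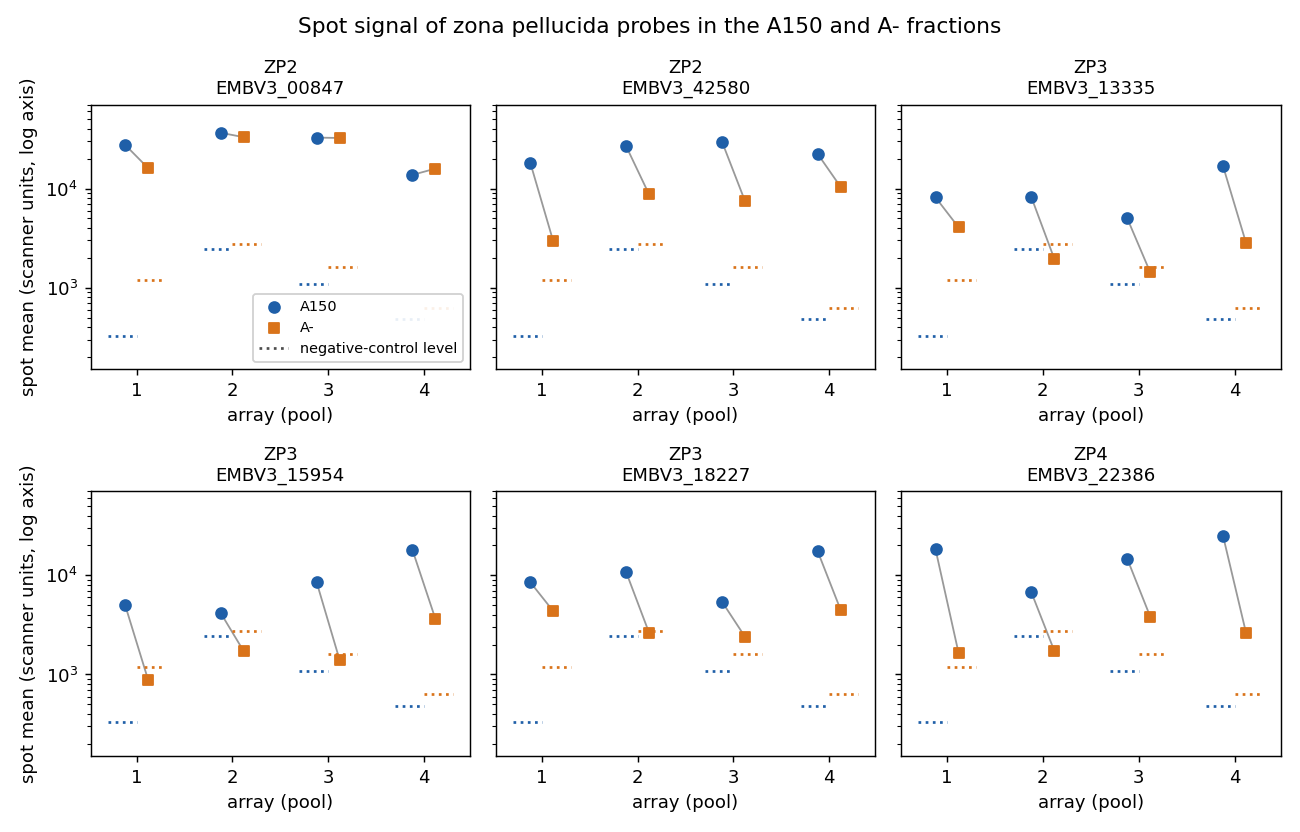
Spot mean signal of each zona probe (vertical, scanner units on a log axis) on arrays 1 to 4 (horizontal), with A150 as blue circles and A- as orange squares joined by a line for each array; dotted bars mark the level of the negative-control spots in each channel. The blue circles lie above the orange squares on every array for 5 probes. The ZP2 probe EMBV3_00847 has nearly level pairs on arrays 2 to 4 and the blue circle higher on array 1. Of the ZP3 and ZP4 probes, 7 orange squares lie below their dotted bar.

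ZP2 encodes the zona protein whose processing after fertilisation is part of the block to further sperm, as known from the mouse. Its probe EMBV3_42580 had A150 spot means of 18186, 26737, 29758 and 22271 on arrays 1 to 4. The A- spot means of this probe were 2928, 8710, 7512 and 10351. The groups did not overlap, since the lowest A150 value lay above the highest A- value. Here and for the probes below, such a separation compares unnormalized spot means across arrays and dyes and leaves out the pairing. The share of all kept probes that separate in this way was not counted. The normalized log2 ratios of A150 over A- were 2.69, 1.58, 1.64 and 1.06. Their mean was 1.74 ± 0.69 (SD, n = 4), with an unadjusted p of 0.00359 and an adjusted p of 0.122 (limma). The probe was above background in each of its 8 channels, so its ratio rests on measured signal on both sides.

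The second ZP2 probe, EMBV3_00847, is the brightest zona probe. It had A150 spot means of 27621, 36458, 32622 and 13733 on arrays 1 to 4. Its A- spot means were 16091, 32923, 32331 and 15881. The A150 and A- ranges overlapped almost fully. The log2 ratios were 0.43, -0.05, -0.35 and -0.28, with a mean of -0.06 ± 0.35 (SD, n = 4, limma adjusted p = 0.945). This probe had no settled side: only array 1 was positive, and the mean was 0.03 without array 3, 0.01 without array 4 and 0.55 when arrays were centred on their median instead of by loess.

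The ZP2 probes therefore differed from each other within every pool. EMBV3_42580 exceeded EMBV3_00847 by 2.27, 1.63, 1.99 and 1.34 log2 units on arrays 1 to 4, a mean difference of 1.81 ± 0.41 (SD, n = 4). A sign-flip permutation test (exact, two-sided) over 4 arrays gave the smallest p it can, 2 of 16 sign patterns or 0.13 rounded (0.167 after adjustment over 4 pairs of probes of the same gene). Brightness differed along with the ratio. Median pixels of EMBV3_00847 stood at 15.8% to 69.7% of the scanner's ceiling in A150 and at 17.3% to 66.6% in A-. The 44 other kept probes at least as bright had a median ratio of -0.27, with quartiles of -0.52 and -0.10. For the 285 other kept probes at least as bright as EMBV3_42580 the quartiles were -1.36 and 0.65, so ratios spread less among the brightest probes. The part of brightness in the difference between the ZP2 probes was not tested. RefSeq (assembly ARS-UCD2.0) lists 5 transcripts for ZP2, 4 coding and 1 non-coding, and 1 each for ZP3 and ZP4. Which of them each probe detects was not analysed here.

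ZP3 encodes a structural zona protein that, with its partners, forms the filaments of the coat and that acts in sperm binding in the mouse. Its brightest probe, EMBV3_18227, had A150 spot means of 8511, 10784, 5431 and 17380 on arrays 1 to 4. Its A- spot means were 4347, 2627, 2405 and 4450. All A150 values lay above all A- values. The log2 ratios were 0.89, 3.06, 0.98 and 1.87, a mean of 1.70 ± 1.01 (SD, n = 4, limma unadjusted p = 0.0119, adjusted p = 0.195). Array 2 was the highest by more than 1 log2 unit, and on that array the A- spot lay below the negative-control level of 2771. Without array 2 the mean was 1.24.

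The ZP3 probe EMBV3_13335 showed the same order of arrays at the extremes, with array 2 highest and array 1 lowest. Its A150 spot means were 8136, 8176, 5023 and 16868, and its A- spot means were 4065, 1949, 1434 and 2839. The fractions did not overlap. The log2 ratios were 0.95, 4.86, 2.37 and 2.48, a mean of 2.67 ± 1.62 (SD, n = 4, limma unadjusted p = 0.00945, adjusted p = 0.178). A- was above background on arrays 1 and 4 only, and the mean was 1.93 without array 2.

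EMBV3_15954 had the highest mean ratio of the zona probes. Its A150 spot means were 5046, 4140, 8486 and 17942, against A- spot means of 889, 1707, 1395 and 3613. Again no A- value reached the lowest A150 value. The log2 ratios were 5.05, 4.71, 3.32 and 2.23, a mean of 3.83 ± 1.30 (SD, n = 4, limma unadjusted p = 0.000829, adjusted p = 0.0804). The lowest ratio was on array 4, the only array on which A- was above background, so the other ratios set a measured A150 signal against an A- signal at the level of the negative controls.

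The ZP3 probes agreed on the side and not on the size. EMBV3_15954 exceeded EMBV3_18227 on all 4 arrays, by 2.13 ± 1.59 on average (SD, n = 4, exact sign-flip p = 0.13, the smallest possible, adjusted p = 0.167). EMBV3_13335 exceeded EMBV3_18227 on all 4 arrays too, by 0.97 ± 0.78 (SD, n = 4, same exact p). These sizes include arrays on which A- of 1 or both probes was not above background. Without background correction the first difference was 0.92 ± 0.98 (SD, n = 4), positive on 3 arrays (exact sign-flip p = 0.25), and the second was 0.37 ± 0.33, positive on all 4. EMBV3_15954 lay above EMBV3_13335 by 4.10 on array 1 and 0.95 on array 3 and slightly below it on arrays 2 and 4, so these 2 probes could not be ordered (exact sign-flip p = 0.5).

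ZP4 encodes a zona protein present in the coat of cattle and absent from that of the mouse, where the gene is a pseudogene. Its single probe, EMBV3_22386, had A150 spot means of 18219, 6734, 14699 and 25041 on arrays 1 to 4. Its A- spot means were 1653, 1726, 3840 and 2640. The lowest A150 spot, on array 2, was still above the highest A- spot. The log2 ratios were 3.97, 5.44, 1.66 and 3.20, a mean of 3.57 ± 1.58 (SD, n = 4, limma unadjusted p = 0.00243, adjusted p = 0.108). The ratio was highest on array 2, where A- was below the negative-control level, and lowest on array 3. Among arrays with A- above background it ran from 1.66 to 3.97, and the mean without array 2 was 2.94.

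**Figure D2:**
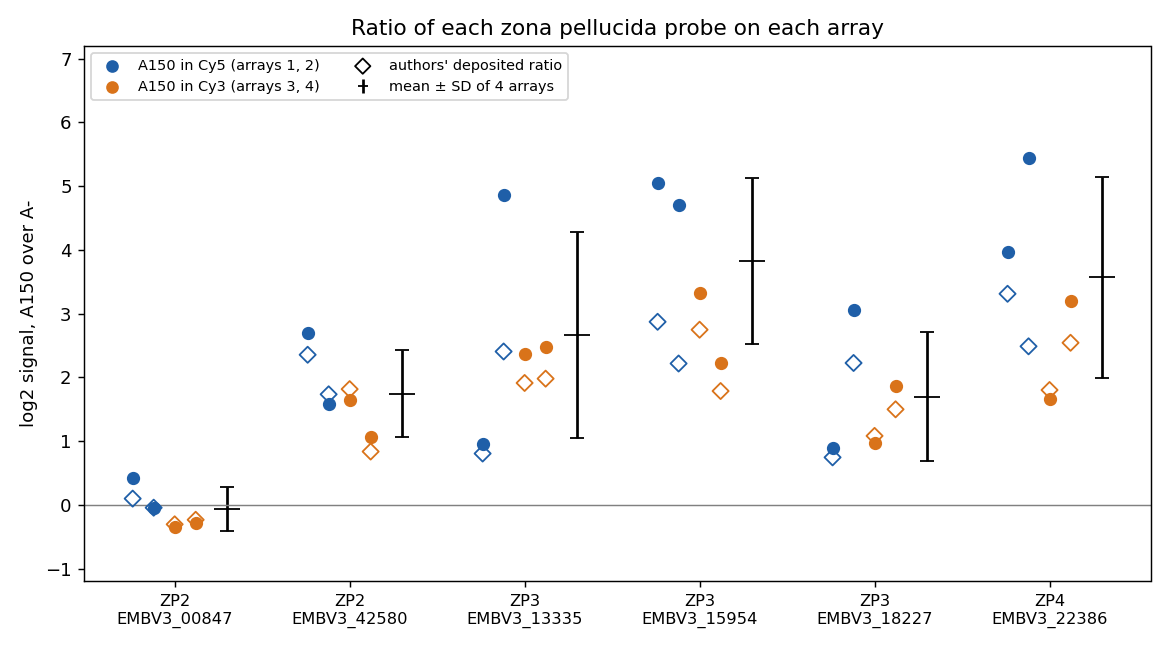
Log2 signal of A150 over A- (vertical) for each zona probe (horizontal) on each array, with blue for A150 in Cy5 (arrays 1 and 2), orange for A150 in Cy3 (arrays 3 and 4), open diamonds for the ratios in the authors' deposited table and black bars for the mean ± SD of the 4 arrays. Probe EMBV3_00847 sits around 0, the other 5 probes are above 0 on every array, and the open diamonds of ZP3 and ZP4 lie well below the filled circles on array 2.

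The size of the ZP3 and ZP4 ratios depended on how the nonspecific signal was handled. Without background correction the mean ratio was 1.76 ± 0.68 (SD, n = 4) for EMBV3_13335, 2.31 ± 0.41 for EMBV3_15954, 1.39 ± 0.58 for EMBV3_18227 and 2.55 ± 0.79 for ZP4. In fold terms these are 3.38-fold, 4.95-fold, 2.62-fold and 5.84-fold. The ZP2 probes, bright in both fractions, moved little, to 1.66 ± 0.56 for EMBV3_42580 and -0.11 ± 0.23 for EMBV3_00847. The ratios in the authors' deposited table gave means close to these, at 1.78 for EMBV3_13335, 2.41 for EMBV3_15954, 1.39 for EMBV3_18227, 2.54 for ZP4, 1.69 for EMBV3_42580 and -0.12 for EMBV3_00847. On array 2 the authors' deposited table had 2.49 for ZP4 and 2.41 for EMBV3_13335, against 5.44 and 4.86 after background correction.

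The position of the zona probes among the 19453 kept probes, ranked from the highest mean ratio, was less dependent on that step for ZP4 than for the ZP3 probes. ZP4 ranked 6 after background correction and 5 both without it and in the authors' deposited table. EMBV3_15954 ranked 2, 24 and 14 under these settings. EMBV3_13335 ranked 88, 179 and 175, EMBV3_18227 ranked 737, 496 and 488, and EMBV3_42580 of ZP2 ranked 685, 245 and 215. EMBV3_00847 stood near the middle, at 10402, 12394 and 12365.

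**Figure D3:**
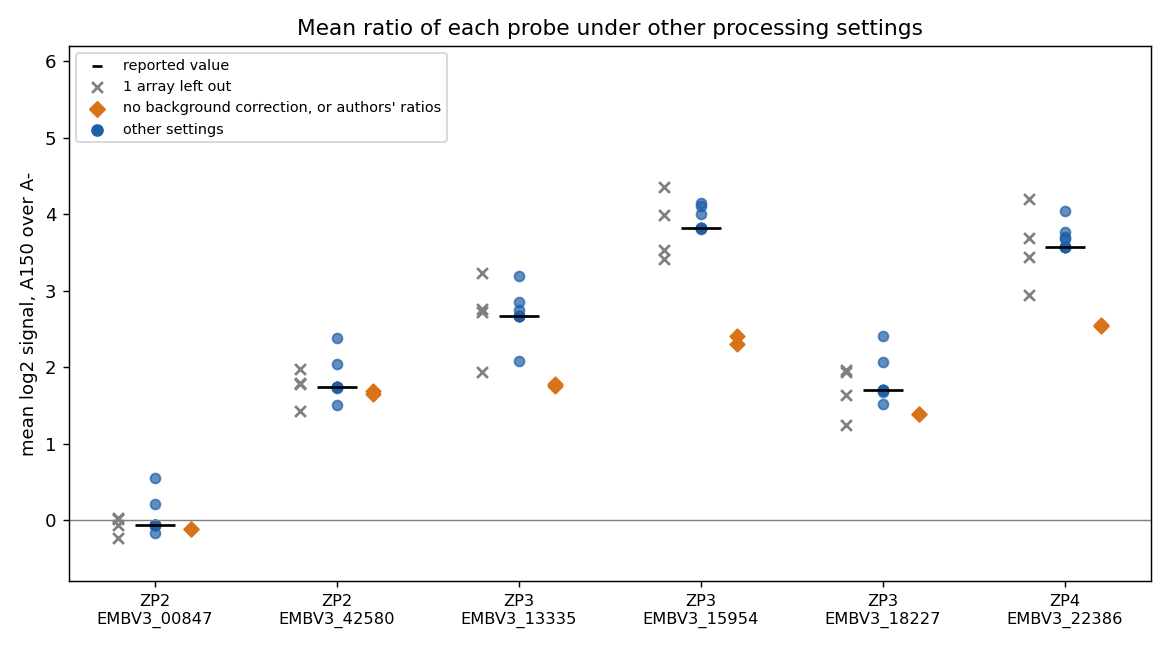
Mean log2 signal of A150 over A- (vertical) for each zona probe (horizontal) as reported (black bar), with 1 array left out (grey crosses), without background correction or from the authors' deposited table (orange diamonds), and under the other processing settings (blue circles). For ZP4 and the ZP3 probes EMBV3_13335 and EMBV3_15954 the orange diamonds lie below every other setting, and for EMBV3_00847 the values fall on both sides of 0.

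Dye orientation is the known technical difference between the arrays, with 2 arrays each way. With A150 in Cy5 the mean ratios were 2.14 for EMBV3_42580, 0.19 for EMBV3_00847, 2.91 for EMBV3_13335, 4.88 for EMBV3_15954, 1.97 for EMBV3_18227 and 4.71 for ZP4. With A150 in Cy3 they were 1.35, -0.31, 2.42, 2.77, 1.42 and 2.43 in the same order. The 5 probes on the A150 side were positive in both orientations. All 6 had the larger value with A150 in Cy5, as did 45.9% of kept probes. None of the 6 differences between orientations passed across all kept probes (limma, adjusted p from 0.573 to 0.929, 0% of kept probes called). EMBV3_15954, with a difference of 2.11, had an unadjusted p of 0.0240, and 8.24% of kept probes had one under 0.05. The higher value with A150 in Cy5 was found for 5 of 6 probes in the authors' deposited table and for 3 of 6 without background correction.

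The genes were then compared with each other, each by its brightest probe, in 3 pairs. ZP4 exceeded ZP3 on all 4 arrays, by 0.69 to 3.08 log2 units (mean 1.87 ± 1.07, SD, n = 4). ZP4 exceeded ZP2 by 2.01 to 5.49 (mean 3.63 ± 1.43). ZP3 exceeded ZP2 by 0.46 to 3.11 (mean 1.76 ± 1.13). Each pair kept its direction on every array and had an exact sign-flip p of 0.13, the smallest that 4 arrays allow, unchanged by adjustment over the 3 pairs. The upper ends of 5.49 and 3.11 are both from array 2, where A- of ZP4 and ZP3 was not above background. Without background correction the mean differences were 1.16 ± 1.02 (SD, n = 4) for ZP4 over ZP3 and 2.66 ± 0.74 for ZP4 over ZP2. ZP3 over ZP2 then ran from 0.64 to 2.13, and each pair was positive on all 4 arrays. The order rests on the probe chosen. EMBV3_15954 of ZP3 had a mean of 3.83, against 3.57 for ZP4. It lay above ZP4 on arrays 1 and 3 and below it on arrays 2 and 4. Without background correction its mean was 2.31, against 2.55 for ZP4. EMBV3_13335, with a mean of 2.67, lay above ZP4 on array 3 (2.37 against 1.66) and below it on the other arrays. Only by EMBV3_18227 did ZP4 lie above ZP3 on every array. Against EMBV3_42580, the other ZP2 probe, ZP3 differed by -0.05 ± 1.48 (SD, n = 4) and lay above it on 2 arrays and below it on 2, so ZP3 and ZP2 could not be ordered. ZP4 lay above EMBV3_42580 by 1.83 ± 1.61, and by only 0.02 on array 3; without background correction that difference was 0.89 ± 0.89 and positive on 3 arrays. With all kept probes of a gene averaged, the ratios were 3.57 for ZP4, 2.73 for ZP3 and 0.84 for ZP2, and none passed over all genes (limma adjusted p = 0.123, 0.123 and 0.298).

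Genes with the most similar ratios over the 4 arrays were found by Euclidean distance among 7333 named genes. For ZP4 these were UBL5, which encodes a ubiquitin-like protein of splicing, RBMX, an RNA-binding protein gene, and COA8, needed for cytochrome c oxidase assembly. Their distances were 1.58, 1.89 and 2.09, and the median over all genes was 7.84. The nearest genes lie below such a median by how they were picked, so the distances are no test of likeness. For ZP3 the nearest were PSMD9, a proteasome assembly chaperone, TRIOBP, an actin-binding protein gene, and MEMO1, at 0.40, 0.49 and 0.67 (median 4.19). For ZP2 by its brightest probe they were GPC4, a cell-surface proteoglycan gene, CCZ1 and the DNA ligase gene LIG4, at 0.07, 0.18 and 0.18 (median 2.00).

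Genes that act with the zona fell on both sides of 0. Of 22 genes of zona assembly, processing and gamete binding, 16 were on the array and 7 were kept, 4 with a positive and 3 with a negative ratio. Their median, which changed sign under several settings, was 0.10, beside 0.01 over all genes tested, of which 50.6% were positive. None passed over all genes (limma), and 1 was toward A150 at an unadjusted p under 0.05, against 9.72% of all genes (4.19% toward A-). That gene was ASTL, which encodes ovastacin, the protease that cleaves ZP2 after fertilisation in the mouse. ASTL had log2 ratios of 2.18, 0.92, 1.22 and 0.13 on arrays 1 to 4 (mean 1.11 ± 0.85, SD, n = 4, limma adjusted p = 0.312) and exceeded background in A- on just 1 of the arrays. The other kept members stood at 0.38 ± 0.63 for FETUB, an inhibitor of ovastacin known from the mouse, 0.24 ± 1.88 for OOSP2, an oocyte-secreted protein gene, and 0.10 ± 0.40 for PCSK6, a proprotein convertase gene. CD9, an egg membrane protein gene, stood at -0.45 ± 1.19, and ZPBP and ZPBP2, known for sperm proteins that bind the zona, stood at -0.42 ± 0.33 and -0.60 ± 1.12.

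FIGLA encodes the oocyte transcription factor that activates the zona genes in the mouse. Its log2 ratios were 2.19, 1.75, 1.32 and 1.89 on arrays 1 to 4, a mean of 1.79 ± 0.36 (SD, n = 4, limma unadjusted p = 0.000983, adjusted p = 0.105). Its arrays spread less than those of any ZP3 or ZP4 probe, and its mean was close to those of ZP3 by EMBV3_18227 and ZP2 by EMBV3_42580. Of the 10 listed oocyte transcription factors 3 were kept. LHX8 stood at -1.31 ± 0.93 by its brightest probe while its other probes stood at 1.01 and 1.17, and SOHLH1 stood at -0.29 ± 1.65. The median of these 3 genes was -0.29, and it was 0.51 without array 2 and 0.059 with no filter on dim probes.

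The oocyte growth factor genes divided much as the ZP2 probes did. GDF9 had log2 ratios of 0.52, 2.69, 2.51 and 1.06 (mean 1.70 ± 1.07, SD, n = 4, limma adjusted p = 0.209), and BMP15 stood at -0.02 ± 0.24. Among subcortical complex and maternal-effect genes 9 of 10 kept members were positive, with a median of 1.09, beside 50.6% positive and a median of 0.01 over all genes tested. Of them 4 were toward A150 at an unadjusted p under 0.05, against 9.72% of all genes. The linker histone gene H1-8 (2.17 ± 0.77) and DPPA3 (1.11 ± 0.23) had the smallest p toward A150, each by its brightest probe. The other kept H1-8 probes were lower, from 0.54 to 1.76, and a second DPPA3 probe stood at -0.32. ZBED3 stood at -0.83 ± 1.76. Among enzymes of glycan addition and protein folding in the secretory path, which zona glycoproteins pass through, 9 of 14 kept genes were positive (50.6% over all genes) and the median was 0.31. At an unadjusted p under 0.05 (limma), 4 of the 14 were toward A150 and 0 toward A-, against 9.72% and 4.19% of all genes. PDIA3, a disulphide isomerase gene, stood at 1.98 ± 1.16 and C1GALT1C1, the chaperone of O-glycan extension, at 1.41 ± 1.04, against -1.61 ± 1.82 for GCNT1 and -0.82 ± 1.06 for MGAT2. No gene of these lists passed over all genes (limma), where 0% were called in either direction.

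**Figure D4:**
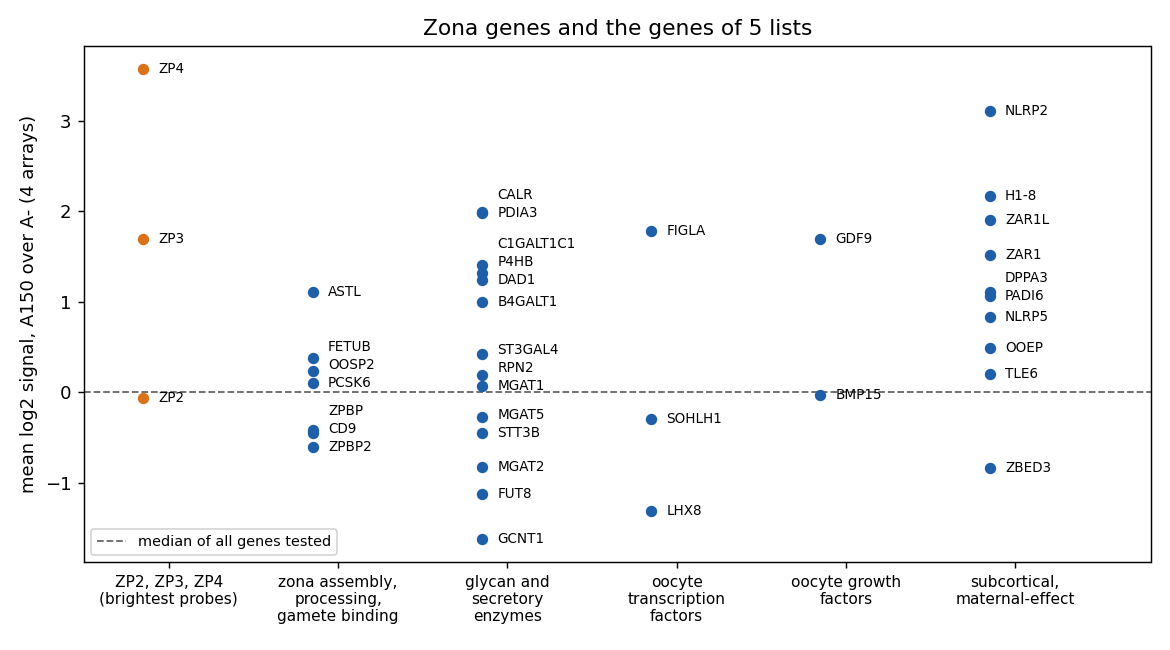
Mean log2 signal of A150 over A- over 4 arrays (vertical) for ZP2, ZP3 and ZP4 by their brightest probes (orange) and for the kept genes of 5 lists (blue, named), with the median of all genes tested as a dashed line. ZP4 has the highest mean shown, ZP2 and BMP15 lie on the dashed line, and the zona-related genes fall on both sides of it.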

How the data were processed

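Per the file headers, the deposited array files give the intensity of each spot and of its surroundings as mean and median pixels at 532 nm (green, Cy3) and 635 nm (red, Cy5), with nothing subtracted. No source used here names the scanner, the image software or the authors' normalization. The authors also deposited a table of log2 ratios. Each column followed (r from 0.996 to 0.999) the loess ratio of A150 over A- obtained here without background correction, at slopes from 0.837 to 1.22 and with medians from -0.011 to 0.020. The table therefore runs as A150 over A-, while its scaling is unknown. RNA was amplified before labelling, per the labels' protocols, which can favour some transcripts.

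Each file had 22 rows with no probe name, which were dropped. Spot means were corrected with normexp (median local background, offset 50) and normalized within arrays by loess with control spots at weight 0, and arrays were not scaled to each other (limma 3.58.1, R 4.3.3). Ratios of arrays 3 and 4 were turned. Kept probes were tested against 0 with limma's lmFit and eBayes on 3 residual degrees of freedom, with Benjamini-Hochberg adjustment over all kept probes or genes and a threshold of 0.05. The ratio itself pairs the fractions of a pool. A gene was represented by its brightest kept probe. The labels do not say more of the pools than that they are separate, so the spread behind each p-value mixes that of pools and that of arrays. The number of arrays limits the precision. Symbols came from the platform annotation (21790 probes with 1 symbol, 22004 without); 1524 were updated through RefSeq synonyms. No coordinates are given, since no source used here names the array's genome build, and probe sequences were not used here.

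The zona probes and the gene lists were chosen with earlier results of these data known. Named genes were all zona probes, the 3 nearest genes of each zona gene, all kept members of the zona-related, transcription factor and growth factor lists, and the 2 members of the other lists with the smallest p on each side. FUT8 and NLRP2 were named after their values were seen.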

Additional observations from a re-analysis of the deposited data

Results flagged for a closer look

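Of 51 probes checked, 2 had 1 array far from the other 3 by Dixon's criterion, and chance alone flags about 1 in 20. No zona probe was among them. The FUT8 probe, for a fucosyltransferase of the glycan list, stood at -4.03 on array 4, against 0.08, -0.46 and -0.07 on arrays 1 to 3. The NLRP2 probe, for a maternal-effect gene, stood at 0.42 on array 4, against 3.86, 4.37 and 3.78 on arrays 1 to 3.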

How the results depend on the processing

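Of the 281 recalculated values, 249 counted as the same, many of which could not differ. Ratios kept their direction and side of the threshold, list medians moved within their spread, and counts stayed near those reported. Among them were the 5 zona probes positive on every array and the 5 with an unadjusted p under 0.05 (limma), under each setting that kept all 6 probes. Scaling of brightness between arrays, a dye term, no filter, single channels and leaving out saturated spots left the zona ratios and gene differences unchanged. The first count could not fall there or with an array left out. Where a value did move, the cause was not tested unless stated. The ZP2 probe EMBV3_00847 changed sign when arrays were centred on their medians (0.55) or left unnormalized (0.21), and without array 3 (0.032) or 4 (0.011); with 1 array left out it ran from -0.23 to 0.03. ZP2 averaged over both probes was 0.84. The probe EMBV3_42580 passed (1.74, adjusted p = 0.0466, range over alternatives 0.0466 to 0.295) among the 2030 probes that exceeded background in every channel. ZP3 and ZP4 gave no value there because their A- signal was too low. Without normalization within arrays, 3 zona probes passed: EMBV3_13335 at 2.86, EMBV3_15954 at 3.81 and ZP4 at 3.70, with adjusted p of 0.0257, 0.00647 and 0.00793 (ranges over alternatives 0.0257 to 0.409, 0.00647 to 0.240 and 0.00793 to 0.297). In that setting the median of all kept probes was -0.42, and 300 probes (1.54%) were called toward A150 and 355 toward A-.

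The other probe counts toward A150 and A- were 116 and 128 among probes above background in every channel, 76 and 123 on single channels with no replicate block, where the pairing by array is left out (the zona probes stayed uncalled), and 2 and 30 with median pixels, beside 0 and 12 as reported. Calls toward A- were 0 with a dye term, median centring, no background correction, no filter or the authors' deposited ratios, and 0 with any 1 array left out. With 1 array left out, EMBV3_42580 ran from 1.43 to 1.97, EMBV3_13335 from 1.93 to 3.24, EMBV3_15954 from 3.42 to 4.36, EMBV3_18227 from 1.24 to 1.97 and ZP4 from 2.94 to 4.20, none passing. List medians moved beyond their spread for growth factors (-0.024 among genes above background in every channel, 1.47 with median centring), transcription factors (1.79 among genes above background in every channel), maternal-effect genes (1.56 with median centring), and, without normalization within arrays, zona-related genes (-0.45) and glycan enzymes (-0.13). Within its spread, the zona-related median also turned negative with median centring (-0.11), with no filter (-0.14) and without array 2 (-0.067) or 3 (-0.19), and the transcription factor median turned positive with no filter (0.059) and without array 2 (0.51). The pairing of fractions by pool is built into the ratio; no other paired analysis was possible because there is 1 group of arrays. A- was above background on 1 to 3 of 4 arrays for the ZP3 and ZP4 probes, which limits how exactly those ratios are known.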
